A study of Mus musculus with 8 samples.

Results

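A set of 10 genes of nucleotide recycling were followed in the spleens of leukaemic mice. The set holds the GMP reductase genes Gmpr and Gmpr2, the nucleoside salvage and breakdown genes Cda, Dck, Ada, Adk and Upp1, the IMP dehydrogenase genes Impdh1 and Impdh2, and the dNTP hydrolase gene Samhd1. They are 10 of 54018 gene identifiers in the table, matched by symbol through the GENCODE M21 annotation. The set was chosen by name with this same knockdown against control comparison in view, so the members' differences are a description and carry no test.

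The 8 libraries were made from spleen mononuclear cells of C57BL/6 mice with leukaemia, all carrying the Eµ-TCL1A transgene, which drives the human TCL1A oncogene in B cells and models chronic lymphocytic leukaemia. In 4 libraries, called knockdown (replicates 1, 2, 5 and 4), the mice also carried an inducible construct against the lysine demethylase Kdm1a (genotype Kdm1aKD;Eµ-TCL1A) and were given doxycycline after leukaemia had developed. The other 4, called control (replicates 1 to 4), carried Eµ-TCL1A alone. The labels do not say whether control mice received doxycycline, give no ages, and do not name the animal behind a library, so that p-values reflect only how far these libraries spread. The sources used here give neither the construct's promoter nor the cells it acts in. The mononuclear cells were not sorted, so in every result a smaller number of cells of a type and less RNA per cell cannot be told apart.

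Cells make purine and pyrimidine nucleotides from simple precursors or recover them from nucleosides and bases released by RNA and DNA turnover. IMP dehydrogenase commits IMP to guanine nucleotides, and GMP reductase runs the opposite way, returning GMP to IMP. Kinases such as deoxycytidine kinase and adenosine kinase trap nucleosides inside the cell, deaminases such as adenosine deaminase and cytidine deaminase take them away, and SAMHD1 breaks down the finished dNTPs. The same enzymes activate or inactivate the nucleoside analogues used against lymphoid leukaemias.

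Values are FPKM, the number of sequenced fragments divided by transcript length and by library total, which allows genes to be compared per length. Estimated depth was 39700000 to 46700000 fragments per library, and 12567 to 13138 genes reached 1 FPKM. Kdm1a (ENSMUSG00000036940), the targeted gene, was at 20.2, 21.0, 15.6 and 15.5 FPKM in knockdown replicates 1, 2, 5 and 4 and at 24.2, 21.2, 24.1 and 31.1 FPKM in control replicates 1 to 4. All 4 knockdown libraries lay below all 4 controls, although knockdown replicate 2 and control replicate 2 were nearly equal. The knockdown mean was 71.9% of the control mean (log2 difference -0.45, 95% interval -0.86 to -0.05; two-sided exact permutation p = 0.0286, the smallest that 70 assignments allow; limma adjusted p = 0.223). It was -0.29 without both replicate 4 libraries, -0.26 with array weights and -0.24 with the S phase level as a covariate. The B cell markers of the labelled leukaemia were abundant, summing to 1264 to 3320 FPKM in knockdown and 3552 to 4210 in control libraries, and the lowest sum was that of knockdown replicate 4. Xist was at 94.9 to 175 FPKM in the knockdown libraries and 110 in control replicate 1, and at most 0.128 in control replicates 2 to 4. Sex therefore cannot be told apart from group except against control replicate 1, and differences against that library alone are given for the tested members.

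The promoters of Gmpr and Cda are shown because these members differed most between the groups. Sequences are from RefSeq on GRCm38.p6, read 5′ to 3′ on the strand of the gene. The Gmpr sequence is the 250 bases before its RefSeq start, chr13:45507194-45507443 on the plus strand. The Cda sequence is chr4:138367993-138368205 on the minus strand, with the 37 bases nearest the RefSeq start left out because the GENCODE span of the gene covers them. Capitals mark CACACCC, the core letters bound by KLF factors.
Gmpr: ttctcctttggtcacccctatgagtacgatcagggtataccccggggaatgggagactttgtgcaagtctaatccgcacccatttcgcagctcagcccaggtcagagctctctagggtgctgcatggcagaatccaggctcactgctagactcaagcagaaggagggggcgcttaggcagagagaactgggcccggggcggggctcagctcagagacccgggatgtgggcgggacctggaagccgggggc
Cda: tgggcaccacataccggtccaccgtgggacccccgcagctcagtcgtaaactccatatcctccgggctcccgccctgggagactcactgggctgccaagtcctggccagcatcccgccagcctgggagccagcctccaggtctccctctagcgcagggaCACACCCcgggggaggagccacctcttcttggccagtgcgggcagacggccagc

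The 10 members had 14 promoters among the 32851 RefSeq promoters of 27025 genes. Over the 250 bases before the start, both strands searched, AGATAA was in 9.99% and TGATAA in 7.94% of all promoters (letters bound by GATA factors), and AAATCAC, the letters bound by GFI1 and GFI1B, in 2.75%. The E2F letters TTCCCGC and TTGGCGC were in 3.82% and 1.97%. None of these 5 was in a member promoter in that window. CACACCC was in 6.93% of all promoters and in those of Cda, 91 bases before the start, and Samhd1, 71 bases before it. Adding the 50 bases after the start brought CACACCC to Adk and TTGGCGC to Impdh2. The full 250-base windows had 61.2% G and C with 10 CpG for Gmpr, and 68.0% with 14 CpG for Cda, against medians of 52.4% and 6 over all promoters. A match is a description of letters, and a missing match says only that they are not in this window.

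In control leukaemic spleen the members fell into tiers. Samhd1 was the most abundant, at 180 ± 36.6 FPKM (SD, n = 4), followed by Impdh2 at 82.1 ± 5.07 FPKM, and the 4 libraries of each did not overlap with those of the next. Adk (31.2 ± 6.59) and Dck (31.0 ± 3.81) came next with overlapping ranges. Ada (15.2 ± 3.52), Gmpr2 (14.0 ± 2.65) and Impdh1 (9.16 ± 1.76) formed a lower tier in which neighbours overlapped. Cda (0.167 ± 0.0790), Gmpr (0.156 ± 0.0616) and Upp1 (0.153 ± 0.0801) were at the bottom, and their order could not be resolved. The steps from Samhd1 to Impdh2, Impdh2 to Adk, Dck to Ada and Impdh1 to Cda were free of overlap.

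**Figure D1:**
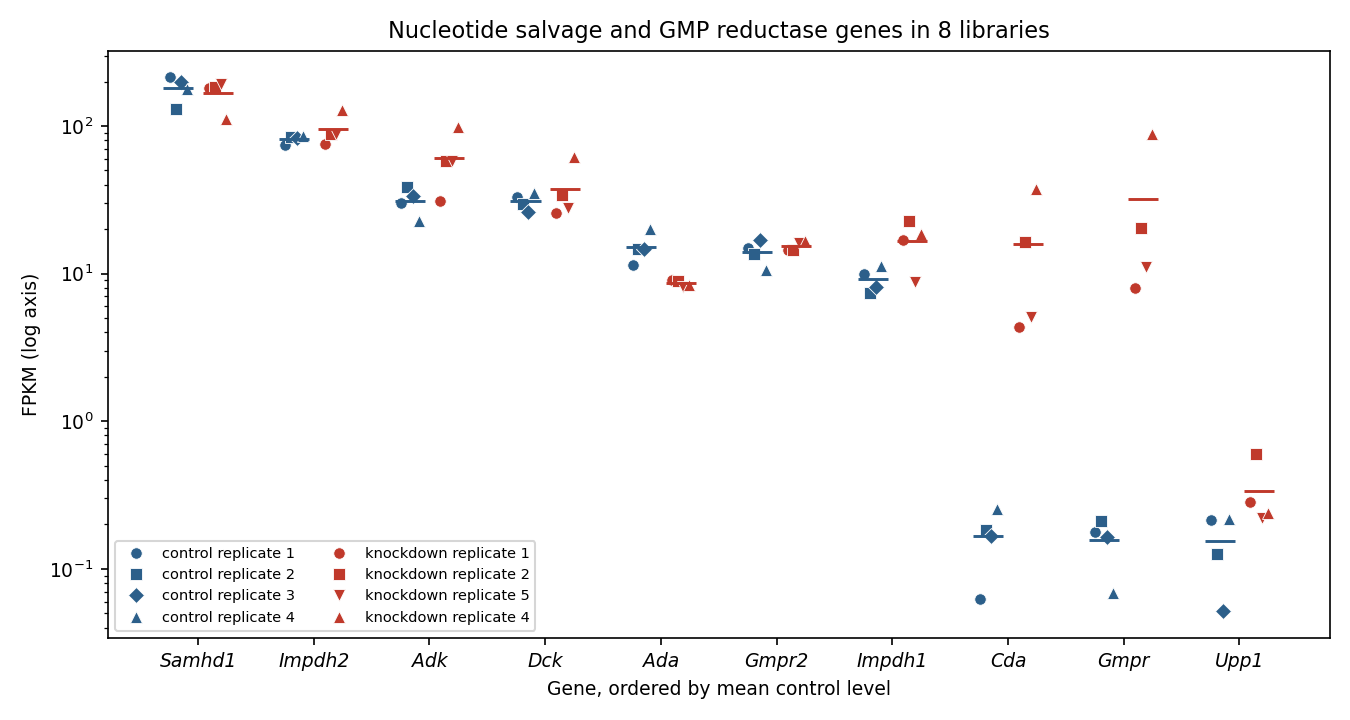
FPKM (log axis) of the 10 genes in 4 control (blue) and 4 knockdown (red) libraries, genes ordered by mean control level; symbols mark replicate numbers and horizontal lines group means. Gmpr and Cda sit between 0.0629 and 0.254 FPKM in the controls and between 4.32 and 87.7 FPKM in the knockdown libraries, while Ada is lower in every knockdown library.

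Gmpr (ENSMUSG00000000253, GRCm38 chromosome 13, 45507444 to 45553800, plus strand) encodes 1 of the mammalian GMP reductases. It was at 7.96, 20.4, 11.1 and 87.7 FPKM in knockdown replicates 1, 2, 5 and 4, against 0.179, 0.211, 0.165 and 0.0681 FPKM in control replicates 1 to 4. The groups were far apart, and knockdown replicate 4 stood above the other knockdown libraries. The means were 31.8 ± 37.7 and 0.156 ± 0.0616 FPKM (SD, n = 4 each), a ratio of 204. Without knockdown replicate 4, a value added after seeing the data, the ratio was 84.3. The difference in log2(FPKM + 1), a scale on which low genes appear to change less than they do, was 4.20 (SE 0.60, 95% interval 2.86 to 5.55), rank 5 of 12890 genes. The control values rest on 3.95 to 12.0 estimated fragments per library and the knockdown values on 476 to 5684. Without knockdown replicate 4 the difference was 3.52, and against control replicate 1 alone it was 4.17. The Gmpr span overlaps Atxn1, and the sources used here do not say whether counting used strand.

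Gmpr2 (ENSMUSG00000002326, chromosome 14, 55671941 to 55679200, plus strand) encodes the other GMP reductase. Its levels were 14.5, 14.4, 16.0 and 16.6 FPKM in knockdown replicates 1, 2, 5 and 4 and 15.0, 13.5, 16.9 and 10.6 FPKM in control replicates 1 to 4. The groups overlapped, and the log2 difference of 0.14 (SE 0.18, 95% interval -0.25 to 0.54) changed sign under median-of-ratios scaling (-0.01), under quantile normalization (-0.03) and without both replicate 4 libraries (-0.01). It was 0.03 against control replicate 1 alone. Its span overlaps Nedd8 and Tinf2.

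Set side by side, the share of Gmpr in the summed FPKM of the GMP reductase genes was 35.4%, 58.6%, 40.9% and 84.1% in knockdown replicates 1, 2, 5 and 4. In control replicates 1 to 4 it was 1.18%, 1.54%, 0.969% and 0.640%. In the controls nearly all GMP reductase transcript was therefore Gmpr2, and in knockdown replicates 2 and 4 most of it was Gmpr. The sum of both was 22.5 to 104 FPKM in knockdown and 10.7 to 17.0 FPKM in control libraries, without overlap.

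IMP dehydrogenase opposes GMP reductase. Impdh1 (ENSMUSG00000003500, chromosome 6, 29200434 to 29216364, minus strand) was at 16.8, 22.6, 8.70 and 18.7 FPKM in knockdown replicates 1, 2, 5 and 4, and at 9.87, 7.34, 8.16 and 11.3 FPKM in control replicates 1 to 4. Knockdown replicate 5 lay within the control range and the other 3 above it. The ratio of means was 1.82 and the log2 difference 0.74 (SE 0.28, 95% interval 0.12 to 1.37), or 0.63 against control replicate 1 alone. Impdh2 (ENSMUSG00000062867, chromosome 9, 108560286 to 108565584, plus strand), the isozyme usually high in dividing cells, was at 75.4, 89.0, 88.8 and 129 FPKM against 74.6, 84.9, 83.3 and 85.5 FPKM. These groups overlapped, with a log2 difference of 0.19 (SE 0.19, 95% interval -0.24 to 0.62), 0.04 without knockdown replicate 4 and 0.32 against control replicate 1 alone. The Impdh2 span overlaps Ndufaf3.

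Impdh2 was the larger share of IMP dehydrogenase transcript everywhere, at 79.7% to 91.1% in knockdown and 88.3% to 92.0% in control libraries. The ratio of summed IMP dehydrogenase to summed GMP reductase FPKM was 4.11, 3.20, 3.60 and 1.41 in knockdown replicates 1, 2, 5 and 4. In control replicates 1 to 4 it was 5.58, 6.73, 5.37 and 9.08. Every knockdown ratio was below every control ratio, and both replicate 4 libraries lay at the extremes.

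Ada (ENSMUSG00000017697, chromosome 2, 163726584 to 163750239, minus strand) encodes adenosine deaminase, which clears adenosine and deoxyadenosine and whose loss causes severe combined immunodeficiency. It was at 9.0, 8.91, 8.15 and 8.43 FPKM in knockdown replicates 1, 2, 5 and 4 and at 11.4, 14.8, 14.7 and 19.9 FPKM in control replicates 1 to 4. The groups did not overlap, and the knockdown libraries were close together, with a coefficient of variation of 4.68% against 23.1% in the controls. The knockdown mean of 8.62 ± 0.403 FPKM was 56.7% of the control mean, a log2 difference of -0.73 (SE 0.19, 95% interval -1.14 to -0.31). Against control replicate 1 alone it was -0.37. Plasma cell markers summed to 455 to 972 FPKM in knockdown and 943 to 1640 FPKM in control libraries, with lower means for all 8 genes and 0 of them past the adjusted threshold. T cell markers summed to 153 to 361 against 103 to 339 FPKM, and the part of either cell type in the Ada values was not tested.

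Adk (ENSMUSG00000039197, chromosome 14, 21052574 to 21448569, plus strand), adenosine kinase, handles the same substrate by phosphorylation. It was at 31.3, 57.7, 57.9 and 97.9 FPKM in knockdown replicates 1, 2, 5 and 4 and at 30.2, 38.3, 33.7 and 22.7 FPKM in control replicates 1 to 4. Knockdown replicate 1 lay inside the control range and the other 3 above it. The ratio of means was 1.96 and the log2 difference 0.86 (SE 0.32, 95% interval 0.15 to 1.57), 0.88 against control replicate 1 alone, 0.46 without both replicate 4 libraries and -0.02 with the S phase level as a covariate. The S phase level nearly followed group, so the last value cannot separate S phase from group. The Adk span overlaps the predicted gene Gm26372.

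The ratio of Adk to Ada FPKM was 3.47, 6.48, 7.10 and 11.6 in knockdown replicates 1, 2, 5 and 4, and 2.65, 2.60, 2.29 and 1.14 in control replicates 1 to 4. All 4 knockdown ratios lay above all 4 control ratios, knockdown replicate 1 being nearest to the controls. This ratio, like the others here, was chosen with the members' values known.

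**Figure D2:**
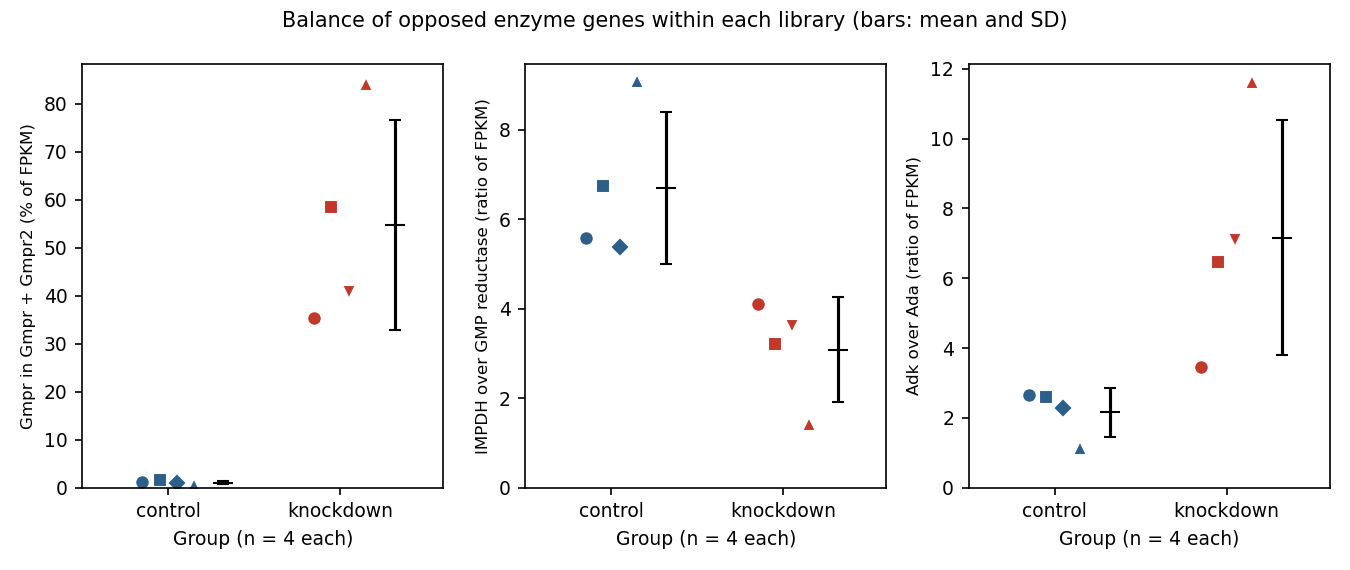
Ratios within each library for control (blue) and knockdown (red), n = 4 each, with mean and SD beside them; symbols mark replicate numbers. Gmpr makes up 0.640% to 1.54% of GMP reductase FPKM in the controls and 35.4% to 84.1% in the knockdown libraries, IMP dehydrogenase over GMP reductase is 5.37 to 9.08 against 1.41 to 4.11, and Adk over Ada is 1.14 to 2.65 against 3.47 to 11.6.

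Cda (ENSMUSG00000028755, chromosome 4, 138338424 to 138367992, minus strand) encodes cytidine deaminase, which converts cytidine and deoxycytidine to uridines and inactivates cytarabine and gemcitabine. It was at 4.32, 16.4, 5.06 and 37.3 FPKM in knockdown replicates 1, 2, 5 and 4 and at 0.0629, 0.182, 0.168 and 0.254 FPKM in control replicates 1 to 4. The groups did not overlap, and the knockdown libraries ranked as for Gmpr. The means were 15.8 ± 15.4 and 0.167 ± 0.0790 FPKM, a ratio of 94.5 (51.6 without knockdown replicate 4), and the log2 difference was 3.38 (SE 0.55, 95% interval 2.14 to 4.62), rank 19 of 12890 genes. Control values rest on 2.04 to 7.17 estimated fragments per library, so the size of the ratio is loosely set. The difference was 2.82 without knockdown replicate 4 and 3.51 against control replicate 1 alone.

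Dck (ENSMUSG00000029366, chromosome 5, 88764996 to 88783281, plus strand), deoxycytidine kinase, phosphorylates deoxycytidine and activates cytarabine, cladribine and fludarabine. It was at 25.6, 34.3, 27.6 and 62.1 FPKM in knockdown replicates 1, 2, 5 and 4 and at 33.0, 29.8, 26.3 and 35.0 FPKM in control replicates 1 to 4. Only knockdown replicate 4 lay above the controls. The log2 difference of 0.18 (SE 0.27, 95% interval -0.42 to 0.78) was -0.09 without that library and 0.09 against control replicate 1 alone.

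Samhd1 (ENSMUSG00000027639, chromosome 2, 157097533 to 157135265, minus strand) was at 181, 185, 194 and 111 FPKM in knockdown replicates 1, 2, 5 and 4 and at 213, 130, 200 and 178 FPKM in control replicates 1 to 4. The other 3 knockdown libraries lay within the control range and replicate 4 was below it. The log2 difference was -0.11 (SE 0.24, 95% interval -0.66 to 0.43) and 0.07 without knockdown replicate 4, and it was -0.38 against control replicate 1 alone. Knockdown replicate 4 also had the lowest B cell marker sum, 1264 FPKM against 3120 to 3320 in the other knockdown libraries, whose part in the Samhd1 value was not tested.

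Upp1 (ENSMUSG00000020407, chromosome 11, 9118103 to 9136170, plus strand), uridine phosphorylase, which cleaves uridine to uracil, was near the detection limit in every library. It was at 0.283, 0.601, 0.219 and 0.240 FPKM in knockdown replicates 1, 2, 5 and 4 and at 0.215, 0.126, 0.0516 and 0.219 FPKM in control replicates 1 to 4, or 9.92 to 27.5 against 2.52 to 11.3 estimated fragments. The groups met at 0.219 FPKM, and no gene at this level entered the fit across genes.

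Of the 9 members with at least 1 FPKM in 4 or more libraries, 7 had a higher and 2 a lower knockdown mean. Gmpr and Cda were higher without overlap, where 11.2% of all 12890 genes were, and Ada was lower without overlap, where 1.9% were. Gmpr and Cda reached 1 FPKM in no control library, so they entered the fit only through the 4 knockdown libraries. Their lack of overlap was thereby fixed by the filter, and their ranks and calls are not independent of it. The adjusted limma threshold was passed upward by 2 members, against 1.63% of all genes, and downward by 0, against 0.109%. These calls belong to the comparison the members were chosen on, and nothing is read from them. The median log2 difference of the 9 was 0.19, beside 0.13 over all genes. That median was -0.01 under median-of-ratios scaling and -0.03 under quantile normalization, and the differences here are to be read against that shift.

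Spread between libraries differed among members. The coefficient of variation in the knockdown libraries was 118% for Gmpr, 97.5% for Cda, 45.1% for Dck and 44.9% for Adk, and only 6.95% for Gmpr2 and 4.68% for Ada. In the controls it was 39.5%, 47.4%, 12.3%, 21.1%, 19.0% and 23.1% for the same genes. Knockdown replicate 4 was the highest knockdown library for 6 of the 10 members. It was so for 35.1% of all genes tested and 58.3% of 72 other nucleotide metabolism genes, and for every erythroid and S phase marker tested. Gmpr varied 11.0-fold and Cda 8.63-fold between the lowest and highest knockdown library.

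Gmpr, Cda, Dck and Impdh2 ranked the knockdown libraries in 1 order, with replicate 1 lowest, then 5, then 2, and 4 highest. This order was shared by 13.5% of all genes tested, by 26 of 72 other nucleotide metabolism genes, by 16 of 19 erythroid marker genes and by 13 of 16 S phase genes. Erythroid markers summed to 1191 to 31759 FPKM in knockdown and 3318 to 8579 FPKM in control libraries, overlapping. Of the 19 tested, 13 had a higher mean log2(FPKM + 1) and 18 had a higher mean FPKM. The adjusted threshold was passed upward by 2 of them, against 1.63% of all genes.

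Markers of other blood lineages were measured in the same libraries. Megakaryocyte and platelet markers summed to 22.6 to 71.3 FPKM in knockdown and 8.02 to 16.3 FPKM in control libraries, without overlap. Of 6 tested, 2 passed the adjusted threshold upward, against 1.63% of all genes. Monocyte and macrophage markers summed to 523 to 1015 against 161 to 393 FPKM, also without overlap, with all 16 higher in mean and 0 past the threshold. Neutrophil granule markers summed to 34.9 to 267 against 72.6 to 490 FPKM, overlapping. Of 12 tested, 3 passed the adjusted threshold downward (Ngp, Camp and Ltf), against 0.109% of all genes. The primary granule genes Mpo, Elane, Prtn3 and Ctsg were higher at unadjusted p. Their log2 differences were 2.05, 1.63, 1.93 and 1.53, with limma adjusted p of 0.083, 0.149, 0.131 and 0.146. The neutrophil granule genes named here were chosen after their values were seen. No marker of these lists was at 0 in every library, and the part of any lineage in the Gmpr and Cda values was not tested.

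Gata1, Klf1 and the globin Hbb-bs ranked the knockdown libraries in the same order as Gmpr but differed in their level against the controls. Gata1, a master regulator of red cell development, was at 21.2, 51.9, 30.1 and 130 FPKM in knockdown replicates 1, 2, 5 and 4 and at 6.44, 6.77, 5.46 and 5.90 FPKM in control replicates 1 to 4. Klf1, an activator of globin genes, was at 26.6, 92.9, 50.04 and 215 against 14.6, 20.6, 14.0 and 18.2 FPKM. The globin Hbb-bs was at 319, 717, 629 and 15844 against 1527, 4752, 4806 and 2298 FPKM. Gata1 and Klf1 were thus higher in all 4 knockdown libraries, whereas Hbb-bs was lower in 3 of them and higher in replicate 4. Of the 19 erythroid markers tested, 13 had a higher and 6 a lower mean log2(FPKM + 1), Hbb-bs among the latter. Gata1, Klf1 and Hbb-bs were picked after their values were seen.

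Within libraries, Gmpr was 0.368 to 0.676 of Gata1 in knockdown and 0.0116 to 0.0312 in control libraries, and 0.220 to 0.408 against 0.00374 to 0.0122 of Klf1. Cda was 0.168 to 0.316 of Gata1 against 0.00976 to 0.0432, and 0.101 to 0.177 of Klf1 against 0.00429 to 0.0140. None of these ratios overlapped between the groups. Gmpr and Cda were chosen on this comparison and were already far apart before division, so that lack of overlap is a description. With the erythroid level as a covariate the log2 differences were 3.65 for Gmpr and 2.88 for Cda, and with the S phase level they were 2.39 and 1.79. The covariates were levels of marker lists in the same libraries, and cells of a stage with other ratios of these genes were not tested. The erythroid level was 4.74 to 8.51 in knockdown and 5.09 to 5.76 in control libraries. It averages 13 genes with a higher and 6 with a lower mean, so the fit with it cannot give the part of erythroid cells. The S phase level nearly followed group, so the fit with it cannot separate S phase from group.

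**Figure D3:**
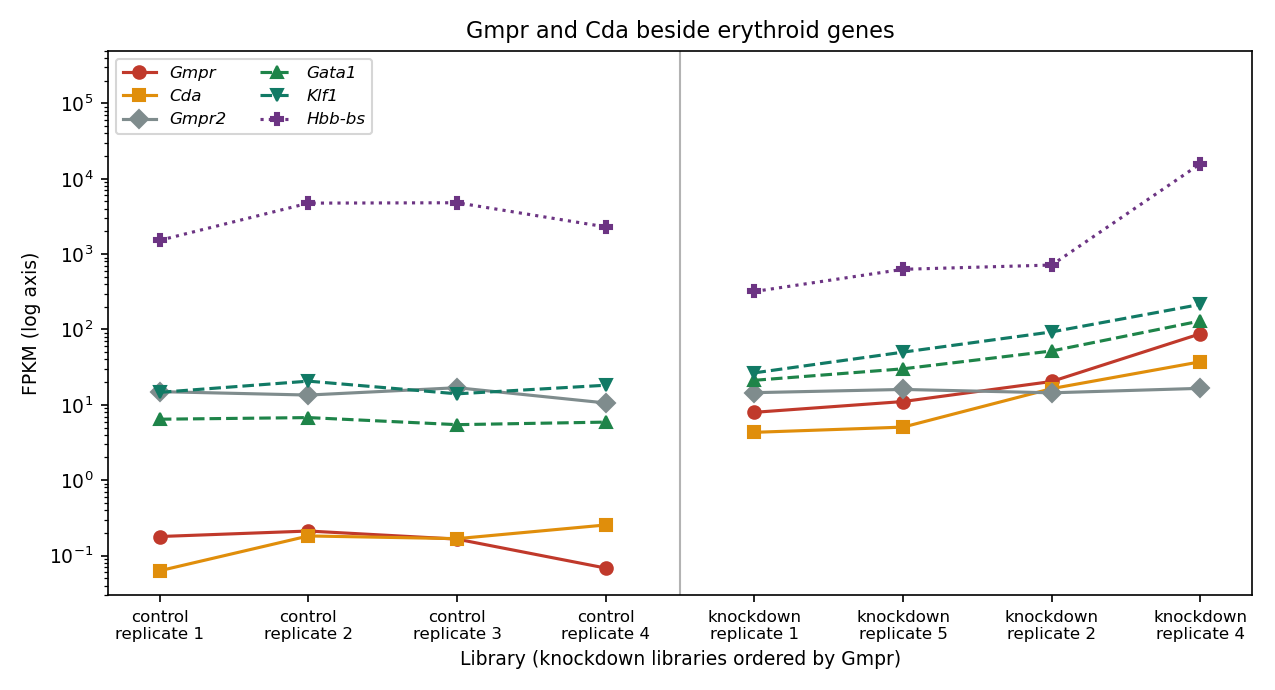
FPKM (log axis) of Gmpr, Cda and Gmpr2 beside the erythroid genes Gata1, Klf1 and Hbb-bs in each library, with knockdown libraries ordered by Gmpr; lines join libraries of a group only to guide the eye. Gmpr and Cda, below 0.3 FPKM in the controls, climb in the same order as Gata1, Klf1 and Hbb-bs across the knockdown libraries. Gmpr2 stays between 10.6 and 16.9 FPKM in all 8. Hbb-bs lies above its control range only in knockdown replicate 4, at 15844 FPKM.

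The genes with profiles nearest to Gmpr were found by the root mean square difference of centred log2(FPKM + 1) over the 8 libraries, among 10984 genes whose median distance was 2.23. Podxl (distance 0.38), Cda (0.49), Kcne3 (0.49), Sdsl (0.50) and Bex4 (0.53) were nearest. Podxl was at 6.44, 22.2, 14.8 and 43.5 FPKM in knockdown replicates 1, 2, 5 and 4 and at 0.0383 to 0.133 FPKM in the controls. For Cda, with a median distance of 1.83, the nearest were Cited4 (0.33), Ces2g (0.35), Tfr2 (0.35), C2cd4a (0.36) and Kcne3 (0.38). Gata1 ranked 18 for Gmpr and 7 for Cda, and Gmpr ranked 17 for Cda. Hbb-bs was among the farthest, ranking 10795 and 10856. All libraries are shared by these profiles, so the distances are a description.

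The 86 other genes of nucleotide metabolism, listed by role with earlier results of these data known, were set beside the members. Of these, 72 could be tested, 50 with a higher and 22 with a lower mean log2(FPKM + 1), the scale of the counts by list below, and the median log2 difference was 0.40 (0.13 over all genes). With limma's adjusted p over all genes, 0 passed in either direction, the smallest adjusted p being 0.0708 for Mtap. At unadjusted p, 27 were higher (37.5%, against 15.8% of all genes) and 2 lower (against 3.41%). Without overlap, 17 were higher (against 11.2% of all genes) and 2 lower (against 1.9%). Median-of-ratios scaling gave 18 higher and 3 lower at unadjusted p, while over all genes the split went from 2040 higher and 440 lower to 1248 and 935. Without knockdown replicate 4, an alternative count chosen after seeing the data, 19 were higher at unadjusted p, against 12.3% of all genes. With the S phase level as a covariate 2 were, against 4.5%. That level, the mean log2(FPKM + 1) of the S phase genes, was 5.14 to 6.53 in knockdown and 4.69 to 5.15 in control libraries. It nearly followed group, so this fit cannot separate S phase from group, and the part of S phase was not tested. S phase genes summed to 695 to 1749 FPKM in knockdown and 499 to 735 FPKM in control libraries, with all 16 tested higher in mean and 0 past the adjusted threshold.

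Among de novo genes, 11 of 14 purine and 9 of 10 pyrimidine and thymidylate genes had a higher mean, with median log2 differences of 0.44 and 0.58. At unadjusted p, 6 of each were higher, against 15.8% of all genes. Gart, a trifunctional purine synthesis enzyme, had means of 57.2 and 36.5 FPKM in knockdown and control (log2 difference 0.62, limma adjusted p = 0.138). Dut, which removes dUTP, had 106 and 53.7 FPKM (0.88, limma adjusted p = 0.157), and Ctps, CTP synthase, 22.3 and 12.8 FPKM (0.70, limma adjusted p = 0.175). Pfas and Prps1 had log2 differences of 0.54 and 0.71, with limma adjusted p of 0.188 and 0.204. None of these passed the adjusted test.

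Among the other purine salvage and breakdown genes, 14 of 16 tested had a higher mean log2(FPKM + 1) and 13 a higher mean FPKM, with a median log2 difference of 0.62. At unadjusted p, 6 were higher, against 15.8% of all genes. Mtap, which recovers adenine from methylthioadenosine, was at 21.5, 26.9, 21.5 and 36.3 FPKM in knockdown replicates 1, 2, 5 and 4 and at 14.9, 12.1, 14.6 and 14.4 FPKM in control replicates 1 to 4. These did not overlap (log2 difference 0.85, limma adjusted p = 0.0708). Gda, guanine deaminase, had means of 16.6 and 3.77 FPKM (1.51, limma adjusted p = 0.164), and Xdh, xanthine dehydrogenase, 6.09 and 2.74 FPKM (0.93, limma adjusted p = 0.119). Xdh groups touched, with 3.96 FPKM in both knockdown replicate 5 and control replicate 1.

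The other pyrimidine salvage genes were mixed, 4 of 10 higher in mean log2(FPKM + 1), 5 in mean FPKM, with a median log2 difference of -0.10. The S phase enzyme thymidine kinase, Tk1, was at 47.9, 81.9, 54.7 and 173 FPKM in knockdown replicates 1, 2, 5 and 4 and at 24.1, 33.7, 27.2 and 29.1 FPKM in control replicates 1 to 4. It did not overlap between groups (log2 difference 1.43, limma adjusted p = 0.0855), and Uck2, a uridine-cytidine kinase, did not either, with means of 49.8 and 27.2 FPKM (0.81, limma adjusted p = 0.108). The interferon-inducible kinase Cmpk2 had 21.9 and 5.92 FPKM (1.51, limma adjusted p = 0.123). Interferon response genes summed to 309 to 721 FPKM in knockdown and 174 to 247 FPKM in control libraries, without overlap. Of 19 tested, 3 passed the adjusted threshold upward, against 1.63% of all genes.

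Ribonucleotide reductase and dNTP pool genes were higher in mean for 6 of 8, median 0.51. Rrm1, the large subunit, had means of 106 and 41.6 FPKM (1.16, limma adjusted p = 0.148), Dctpp1, a dCTP pyrophosphatase, 68.5 and 28.0 FPKM (1.21, limma adjusted p = 0.106) and Nudt1, which clears oxidised purine triphosphates, 19.9 and 11.4 FPKM (0.73, limma adjusted p = 0.125). Nucleotidases had a median of -0.02, with 3 of 9 higher in mean. The ectoenzymes Entpd1 (CD39), at 31.3 against 55.9 FPKM (-0.95, limma adjusted p = 0.202), and Enpp1, at 7.95 against 12.6 FPKM (-0.64, limma adjusted p = 0.187), were the 2 lower at unadjusted p, both without overlap. Nt5c2, a cytosolic nucleotidase, had 21.1 and 13.8 FPKM (0.57, limma adjusted p = 0.143).

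Of the nucleoside and nucleobase transporters 3 of 5 tested were higher in mean. Slc29a1, the equilibrative transporter that carries adenosine and nucleoside analogues, was at 26.1, 49.8, 39.2 and 96.9 FPKM in knockdown replicates 1, 2, 5 and 4 and at 16.2, 18.6, 17.6 and 10.2 FPKM in control replicates 1 to 4. Its groups did not overlap, and replicate 4 was the highest knockdown and the lowest control library (log2 difference 1.57, limma adjusted p = 0.0714). Slc43a3, a purine nucleobase transporter, had means of 43.2 and 16.6 FPKM (1.12, limma adjusted p = 0.176). The concentrative transporter Slc28a2 had 34.3 and 44.1 FPKM (-0.48, limma adjusted p = 0.493).

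**Figure D4:**
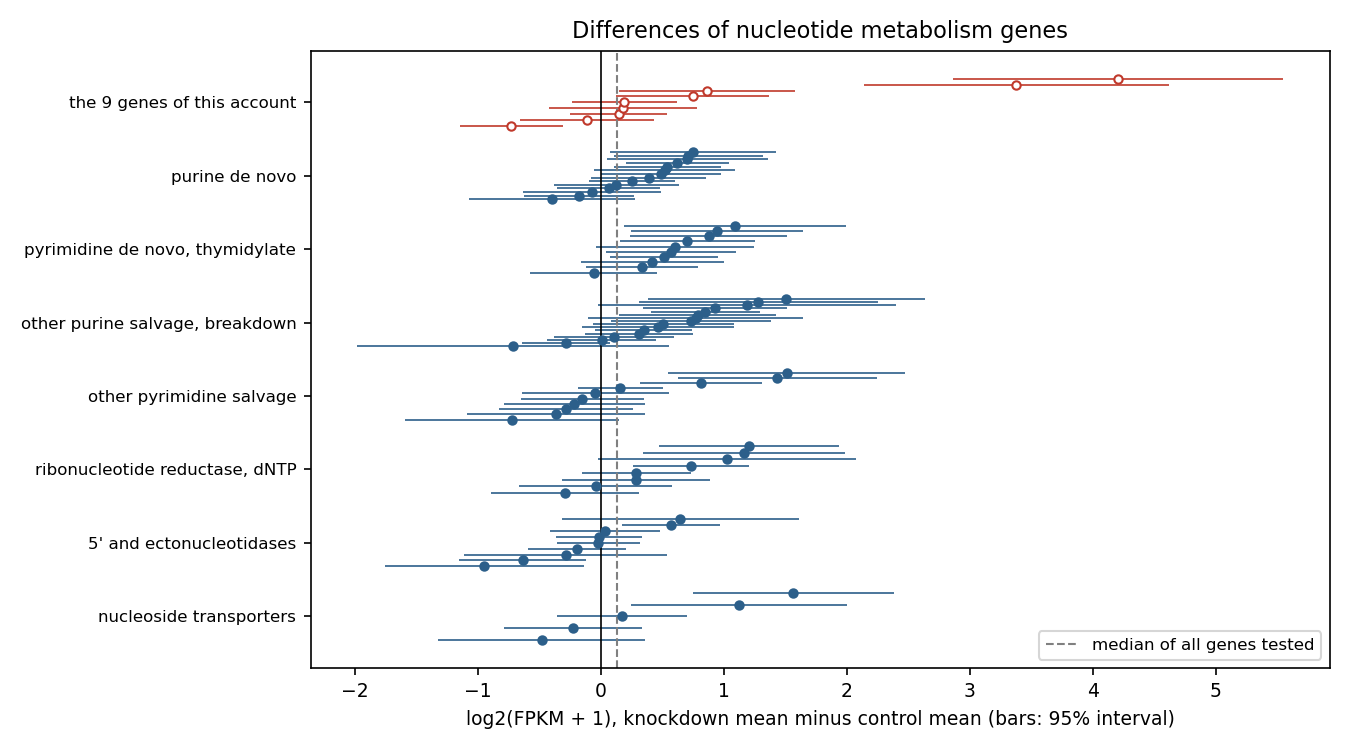
Difference of log2(FPKM + 1), knockdown mean minus control mean, with 95% intervals, for the 9 chosen genes that could be tested (open red) and the 72 other nucleotide metabolism genes (blue) by list; the dashed line is the median of all genes tested, 0.13. Gmpr at 4.20 and Cda at 3.38 lie beyond all others, the largest of which is Slc29a1 at 1.57, and most de novo and purine salvage genes lie right of the dashed line. Gmpr and Cda were chosen with this comparison in view and entered the fit only through the knockdown libraries, so their place is a description.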

How the data were processed

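The authors deposited 1 table of FPKM values for 54018 gene identifiers in 8 libraries of polyadenylated RNA. Per the submitters' processing notes CASAVA and Cufflinks were used. Versions, aligner, genome build, annotation and strand use: not given in the sources used here. Groups and replicate numbers came from the labels. GENCODE M21 (GRCm38) named 53865 identifiers.

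The members and gene lists were chosen with earlier results of these data known. Knockdown was compared with control on log2(FPKM + 1) in limma 3.58.1 with a mean-variance trend (R 4.3.3), over the 12890 genes that reached 1 FPKM in 4 or more libraries. P-values were adjusted by Benjamini-Hochberg over all of them at a threshold of 0.05. The fit was tested on simulated data. The table holds no counts. Low FPKM values move in steps of 1 fragment, which gave the estimated depth, and 93.2% to 95.7% of them lay within 0.05 of a whole fragment. Depth was chosen to make this share largest, so the share is no check of it. It came from genes of 1 transcript and at least 1500 bases, while fragment numbers of Gmpr, Cda and Upp1 used their longest transcript. Fragment numbers cover counting error only. The Kdm1a level was tested by exact permutation.

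Genes named were Kdm1a, the 10 members, the 3 genes with the smallest p in each nucleotide list, and the 5 nearest to Gmpr and to Cda, leaving out receptor segments, predicted models and sex markers. A gene that the rule names is not reported here. Of the marker lists, Gata1, Klf1, Hbb-bs and the neutrophil granule genes were named after their values were seen. A plan to name the genes of highest mean FPKM in each marker list was not followed in full. Aprt, Ahsp, Gins2 and Cdt1 were not analysed here. Alternatives changed pseudocount, filter, scaling, weights, libraries, block and covariates. Promoters were RefSeq's for GRCm38.p6. Python 3.11.15, pandas 2.3.3, numpy 2.4.6, scipy 1.17.1 and matplotlib 3.10.9 were used.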

Additional observations from a re-analysis of the deposited data

Results flagged for a closer look

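In 3 of 22 groups of 4 libraries examined, covering the members and Kdm1a, 1 library stood apart from the other 3. Chance alone does this in about 1 in 20 groups of independent, normally distributed values. These groups are raw FPKM and share the same 8 libraries, so 3 of 22 cannot be set against that rate. Gmpr in knockdown replicate 4 was at 87.7 FPKM, with the other knockdown libraries at 7.96 to 20.4 FPKM. Samhd1 in the same library was at 111 FPKM, below 181 to 194 FPKM in the others. Upp1 in knockdown replicate 2 was at 0.601 FPKM, above 0.219 to 0.283 FPKM in the others, at a level of 9.92 to 27.5 estimated fragments.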

How the results depend on the processing

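The differences of Gmpr, Cda, Ada and Impdh1 kept their sign under all 21 alternatives run, with ranges of 2.36 to 6.33, 1.72 to 5.41, -0.91 to -0.37 and 0.56 to 1.01. The groups of Gmpr, Cda and Ada did not overlap, so leaving out libraries or changing the pseudocount could not turn their sign. For Gmpr and Cda the filter had fixed that lack of overlap, so their kept sign is a description. The differences of Gmpr2, Dck, Impdh2, Samhd1 and Adk did not keep their sign. The number of genes called by limma depended on the setting. Against 210 higher and 14 lower, a pseudocount of 5 gave 22 and 2, no filter 1 and 1, and a mean of at least 5 FPKM 68 and 3. Array weights gave 669 and 92, the erythroid covariate 412 and 27, and the S phase covariate 5 and 3. Higher calls were 139 under median-of-ratios scaling, 108 under quantile normalization and 109 without both replicate 4 libraries. Leaving out 1 library gave 7 (without control replicate 4) to 301 (without knockdown replicate 1) higher and 1 to 40 lower. The cause was not tested.

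Of the other nucleotide genes, 5 were called higher with array weights (Gda, Xdh, Mtap, Tk1, Slc29a1), 4 with the erythroid covariate (Mtap, Tk1, Cmpk2, Slc29a1) and 0 to 2 with 1 library left out (Tk1 and Slc29a1 without knockdown replicate 1). At unadjusted p, 27 were higher, 2 with the S phase covariate, which nearly followed group, and 19 to 32 with 1 library left out. Slc28a2 turned to 0.31 with the S phase covariate. The Kdm1a difference was -0.53 to -0.35 with 1 library left out, where the exact permutation p of 0.0571 is the smallest possible. It was -0.26 with array weights, -0.29 without both replicate 4 libraries and -0.24 with the S phase covariate.

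Same-numbered libraries of the groups deviated together only weakly (correlations of 0.16, 0.05 and -0.12 for replicates 1, 2 and 4). The labels do not say whether they share more than a number, and these correlations cannot decide it. With a replicate block on the 6 libraries with shared numbers, 0 genes were called higher and 0 lower, and 1574 and 514 had an unadjusted p under 0.05. Control levels of Gmpr, Cda and Upp1 are limited by depth.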
